A study of Mus musculus with 24 samples.

Results

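The comparison described here sets the colon of mice that ate curcumin and received a trinitrobenzene sulfonic acid (TNBS) enema against the colon of untreated mice, and asks how far the tissues lay apart at the RNA level. Its members were chosen by their labels alone: the arrays of the curcumin diet with TNBS enema and the arrays of the standard diet with control enema. They make up 12 of the 24 arrays of the study, 3 against 3 on the Affymetrix 430A array and 3 against 3 on the 430B array. The curcumin TNBS mice were fed 2% curcumin from 2 days before the enema, received TNBS on day 0 and were killed on day 7. The standard control mice ate the standard diet and received the control enema on the same schedule. The curcumin diet with control enema and the standard diet with TNBS enema, 3 arrays of each type per group, served as further groups. All animals were BALB/c mice of 6 to 8 weeks, and RNA came from the whole colon, pooled from 3 mice of a group. Whether a group's 3 samples are separate pools is not stated, so the errors below are spreads between these samples and may be technical.

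TNBS is a hapten that, given into the colon, binds tissue proteins and sets off an inflammation driven by macrophages, neutrophils and T cells. In such a colon the epithelium makes antimicrobial and iron-scavenging proteins, infiltrating cells bring their own transcripts, and absorptive and detoxifying transcripts tend to fall. Curcumin, the yellow polyphenol of turmeric, is known as an inhibitor of NF-kappa B signalling and as an activator of the antioxidant factor Nrf2. In whole-tissue RNA, fewer cells of a type and less RNA per cell cannot be told apart.

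The values are deposited array signals on a linear scale, analysed as log2(signal + 16), with each array type alone. Median signals of the 12 arrays compared were 226.8 to 278.6 (430A) and 292 to 346.1 (430B). The Gapdh control ratio, 3′ over 5′ signal, was 0.721 to 0.878 in curcumin TNBS arrays and 0.740 to 0.873 in standard control arrays. The 430A arrays of the study fell into 2 sets on the first principal component, which carried 32.0% of the variance. Both groups had replicate 1 in the first set and replicates 2 and 3 in the other, so the sets are balanced in this comparison. On 430B, curcumin TNBS replicates 2 and 3 stood apart from all other arrays. Their mean correlation with the standard control arrays was 0.855 and 0.852, against 0.927 for replicate 1. On 430A the same samples had 0.956 and 0.957. The labels name no batch for either feature. The labelled tissue was borne out by colonic markers: the summed signal of 32 absorptive colonocyte genes was 160498 to 173214 in curcumin TNBS arrays and 157296 to 182826 in standard control arrays.

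On 430A, no probe set separated the curcumin TNBS colon from the untreated colon past the threshold. In limma's test with Benjamini-Hochberg adjustment, 0 of 22626 probe sets passed an adjusted p of 0.05 (0%), and 325 (1.44%) had an unadjusted p under that value, 157 higher and 168 lower. With a term for array set, 0 passed and 810 (3.58%) had an unadjusted p under 0.05 in limma. The fit without that term counts the spread between the sets as error. Its smaller share is therefore no measure of closeness. The 3 and 3 arrays did not overlap for 5.62% of probe sets, 2.55% higher and 3.07% lower. The median absolute log2 difference was 0.126, and the median standard error of a difference was 0.262. Among the 13575 probe sets above the 40th percentile of mean signal, the 95% interval of the difference lay within 1 log2 unit of 0 for 12393 (91.3%), so for these a larger difference lies outside the interval. For the remaining probe sets, differences of more than 1 log2 unit were not excluded by the interval.

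Whole-array distances were compared as well. The mean root-mean-square log2 difference between a curcumin TNBS and a standard control array was 0.577 over 9 pairs, against 0.632 over the 6 pairs within the groups. The difference of -0.055 had p = 0.9 in a one-sided exact permutation test, whose smallest possible p with 10 distinct splits is 0.1. Pairs from different array sets made up 4 of the 6 within-group pairs but 4 of the 9 between-group pairs. That composition lowers the difference, and the splits of the test did not hold it fixed. The negative difference and its p are therefore no measure of closeness. Array pairs of the same set lay 0.489 apart between the groups (5 pairs) and 0.444 apart within them (2 pairs). Pairs from different sets lay 0.687 apart between the groups (4 pairs) and 0.725 within them (4 pairs). The curcumin TNBS arrays had mean distances to the standard control arrays of 0.634, 0.556 and 0.541. The standard control arrays had distances to one another of 0.730, 0.587 and 0.577, so those 2 groups overlapped when pairs from different sets were included. Within an array set, the curcumin TNBS arrays lay 0.533, 0.500 and 0.455 from the standard control arrays. Standard control replicates 2 and 3 lay closer, 0.434 from each other, and are the only same-set pair of that group.

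Other comparisons of the study give the scale, although they share arrays with this one. The median absolute log2 difference on 430A was 0.191 for standard TNBS against standard control and 0.161 for curcumin control against standard control, and 0.194 for curcumin TNBS against standard TNBS. With a term for array set, the values were 0.126 for curcumin TNBS against standard control and 0.185, 0.148 and 0.192 in the same order for the other comparisons. Among probe sets above the 40th percentile, 22 differed by more than 1 log2 unit between curcumin TNBS and standard control. That number was 165 for standard TNBS against standard control and 153 for curcumin TNBS against standard TNBS. It was 71 for curcumin control against standard control, where neither group received TNBS, and 54 for curcumin TNBS against curcumin control.

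**Figure D1:**
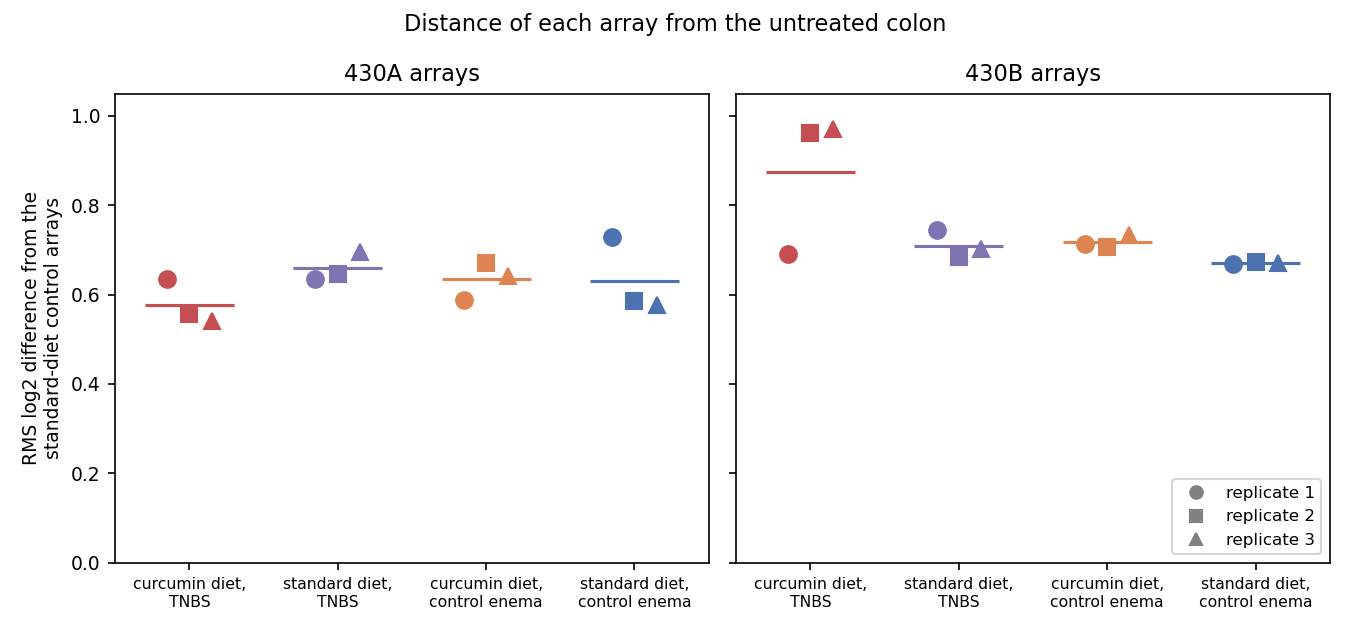
Root-mean-square log2 difference of each array from the standard control arrays, on 430A (left) and 430B (right). A standard control array was set against the other standard control arrays of its type. On 430A the distances include pairs from different array sets. Points are arrays, shapes are replicates and lines are group means; on 430A the curcumin TNBS arrays sit at 0.541 to 0.634 and the standard control arrays at 0.577 to 0.730, and on 430B curcumin TNBS replicates 2 and 3 sit at 0.961 and 0.971.

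Lcn2, Chil3, Arg1 and Lbp are given first because they were called lower in curcumin TNBS than in standard TNBS, so that choice set their low values beside standard TNBS. Lcn2, the gene of lipocalin 2, which withholds iron from bacteria, had signals of 134.5, 123.0 and 159.0 in curcumin TNBS arrays, 6003, 2957 and 5714 in standard TNBS arrays, and 56.9, 114.4 and 72.8 in standard control arrays. The curcumin TNBS arrays all lay above the standard control arrays and far below every standard TNBS array. The log2 difference from standard control was 0.71 ± 0.60 (SE), with a 95% interval of -0.60 to 2.01 and an adjusted p of 1.00 in limma. Tested directly against standard TNBS, Lcn2 was lower by a log2 difference of -4.92 ± 0.60 (adjusted p = 0.0261 in limma).

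Chil3, a chitinase-like protein of alternatively activated macrophages, had signals of 6.0, 10.9 and 11.5 in curcumin TNBS arrays, 643.4, 201.9 and 378.7 in standard TNBS arrays, and 7.2, 11.7 and 10.2 in standard control arrays. The curcumin TNBS and standard control values overlapped and were both close to the bottom of the scale. The log2 differences of curcumin TNBS were -0.02 ± 0.52 from standard control and -3.92 ± 0.52 from standard TNBS (adjusted p = 0.0261 in limma against standard TNBS). Arg1, the arginase of the same macrophage state, had signals of 32.7, 12.8 and 11.0 in curcumin TNBS arrays, 208.9, 136.0 and 380.4 in standard TNBS arrays, and 33.2, 18.9 and 20.7 in standard control arrays. Its log2 difference was -0.24 ± 0.36 from standard control and -2.83 ± 0.36 from standard TNBS (adjusted p = 0.0261 in limma). Lbp, the lipopolysaccharide-binding protein, had 261.1, 243.1 and 234.4 in curcumin TNBS arrays, 892.3, 635.4 and 871.9 in standard TNBS arrays, and 327.9, 287.6 and 334.0 in standard control arrays. The curcumin TNBS arrays of Lbp all lay below the untreated ones, with a log2 difference of -0.34 ± 0.21 that did not pass. Against standard TNBS its difference was -1.62 ± 0.21 (adjusted p = 0.0261 in limma).

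Those 4 genes, together with Aldh1a1 and Ssr4, were the 6 probe sets (0.0265%) that passed between curcumin TNBS and standard TNBS on 430A, 2 higher and 4 lower. Aldh1a1, a retinal dehydrogenase of the mucosa, had signals of 4893, 5131 and 4938 in curcumin TNBS arrays, 2873, 3131 and 2557 in standard TNBS arrays, and 3915, 4191 and 4343 in standard control arrays. The 3 groups did not overlap, and the curcumin TNBS arrays were the highest. Its log2 difference was 0.81 ± 0.11 from standard TNBS (adjusted p = 0.0261 in limma) and 0.27 ± 0.11 from standard control, with a 95% interval of 0.03 to 0.50 and an unadjusted p of 0.0278 in limma. Ssr4, a subunit of the translocon-associated complex of the endoplasmic reticulum, had log2 differences of 1.79 ± 0.23 from standard TNBS (adjusted p = 0.0261) and 0.33 ± 0.23 from standard control in limma. The 6 calls rest on few arrays. In 12 fits with 1 array left out, 5 genes passed in 5 and Ssr4 in 4, and the count was 0 without any 1 curcumin TNBS array, without standard TNBS replicate 1 or 3, and without standard control replicate 2. With a term for array set, the 6 were among 22 called.

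**Figure D2:**
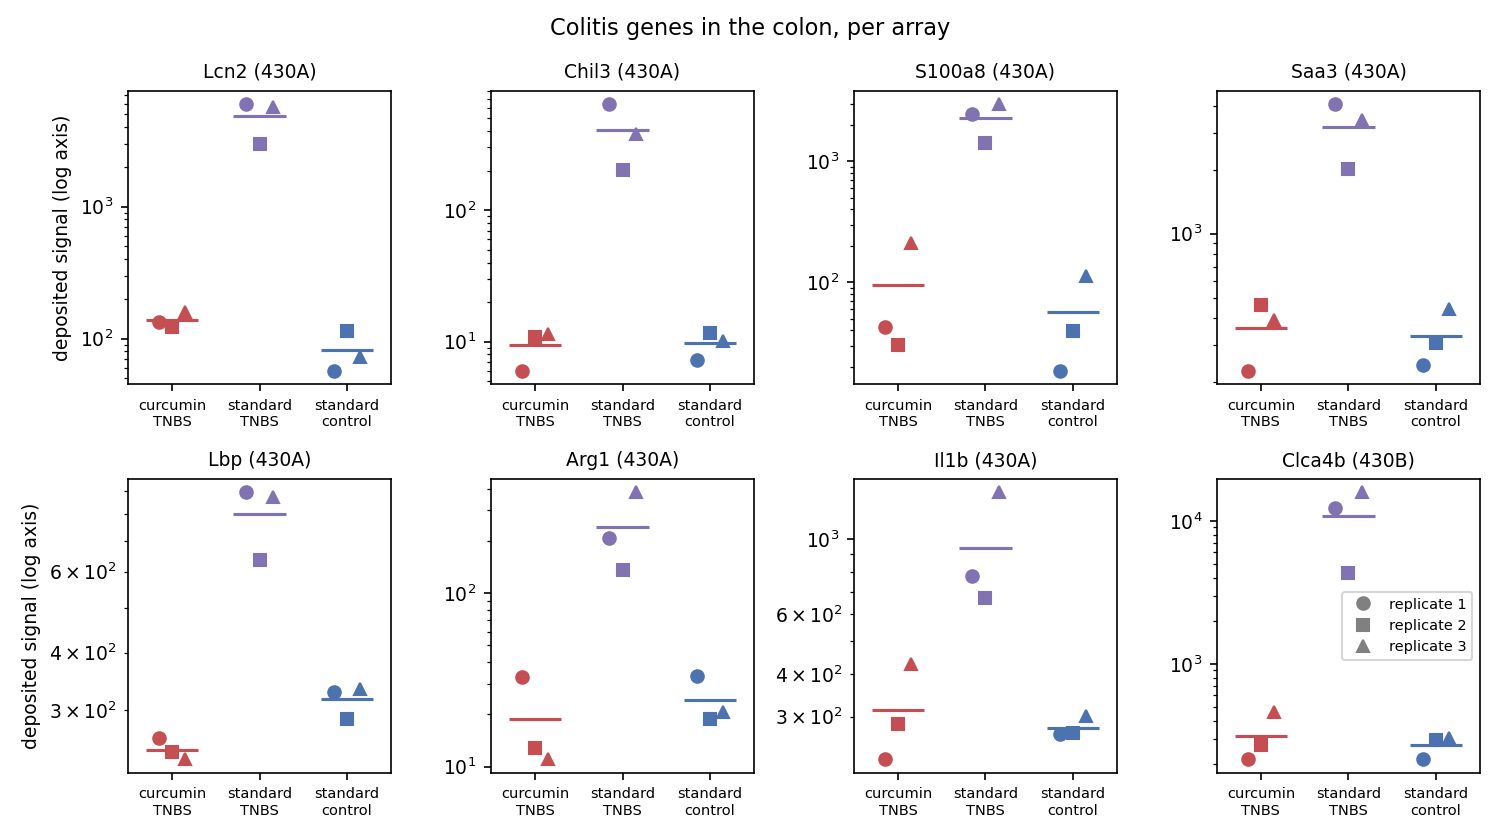
Deposited signal (log axis) of 8 genes of colitis in curcumin TNBS, standard TNBS and standard control arrays. Points are arrays, shapes are replicates and lines are group means; in each panel the curcumin TNBS arrays lie below the standard TNBS arrays and in or near the range of the standard control arrays.

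Several more genes of inflammation did not pass against standard control or standard TNBS on 430A. S100a8, a subunit of the neutrophil protein calprotectin, had signals of 42.6, 30.4 and 212.3 in curcumin TNBS arrays, 2458, 1431 and 2989 in standard TNBS arrays, and 18.5, 39.5 and 113.6 in standard control arrays. Its log2 difference from standard control was 0.44 ± 0.70, and from standard TNBS -4.69 ± 0.70 (adjusted p = 0.063 in limma). Saa3, a serum amyloid A of the acute phase, had 225.4, 462.1 and 392.5 in curcumin TNBS arrays, 4098, 2023 and 3425 in standard TNBS arrays, and 240.6, 303.8 and 442.8 in standard control arrays. The difference from standard control was 0.11 ± 0.47. Il1b, the gene of interleukin 1 beta, differed from standard control by 0.12 ± 0.27 and Timp1, an inhibitor of matrix proteases, by 0.22 ± 0.39, both on the log2 scale. Reg3g, an antimicrobial lectin, differed by 0.43 ± 0.50 and the antibacterial phospholipase Pla2g2a by 0.60 ± 0.55. The curcumin TNBS arrays overlapped the standard control arrays for each gene of this paragraph. S100a9, the other calprotectin subunit, had the largest difference from standard control among them, 1.09 ± 0.77, with a 95% interval of -0.58 to 2.77. Clca4b, a relative of chloride channel accessory genes that 430B carries, had 214.3, 268.5 and 458.6 in curcumin TNBS arrays, 12340, 4324 and 15797 in standard TNBS arrays, and 216.3, 290.6 and 304.3 in standard control arrays. Its log2 difference was 0.15 ± 0.54 from standard control and -4.91 ± 0.54 from standard TNBS (adjusted p = 0.00715 in limma). Of 430B probe sets, 0.418% were called in curcumin TNBS against standard TNBS, a comparison that holds the outlying replicates 2 and 3. In standard TNBS against standard control, where Clca4b was also called, 0.00888% were. Without the outlying replicates 2 and 3 the difference from standard control was -0.30.

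As lists, the inflammatory genes lay close to the median of all genes, which was -0.01 over 12393 genes of 430A. For the 25 acute phase and antimicrobial genes on 430A, the median log2 difference of curcumin TNBS from standard control was 0.11, with 1 gene higher and 2 lower in all arrays. Over all genes 5.8% did not overlap, 2.82% higher and 2.98% lower. Set beside it, the median of standard TNBS from the same standard control arrays was 1.13, and 4 members were called there, where 0.0398% of all probe sets were. The 32 cytokines and chemokines had a median of 0.01 in curcumin TNBS and 0.36 in standard TNBS. The tumour necrosis factor gene Tnf had a log2 difference of 0.02 ± 0.34 and Il6 of -0.11 ± 0.32 from standard control. Of 18 genes of the NF-kappa B pathway, which curcumin is known to inhibit, 5 had positive and 13 negative differences, with a median of -0.06 and 1 gene, Nfkbiz, lower without overlap. Extracellular matrix genes (34 on 430A) had a median of 0.11 in curcumin TNBS and 0.65 in standard TNBS. The collagen gene Col1a1 differed from standard control by 0.16 ± 0.27. Of the members of these 4 lists on 430A, 0 passed limma's test against standard control, and 2 had an unadjusted p under 0.05.

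Markers of infiltrating cells gave similar values. The 14 neutrophil markers had a median log2 difference of 0.01 in curcumin TNBS and 0.72 in standard TNBS from standard control. Their summed signal was 2575 to 3956 in curcumin TNBS arrays, 6969 to 11602 in standard TNBS arrays and 2970 to 3576 in standard control arrays. The 23 monocyte and macrophage markers had medians of 0.04 and 0.38 in the same order of comparisons. The T and NK cell list (19 genes) had 0.08 in curcumin TNBS and 0.19 in standard TNBS. The B and plasma cell list (15 genes) had -0.01 and 0.12. The rise of these lists in standard TNBS was thus smaller than that of the neutrophil and macrophage lists. Only 5 of the 19 T and NK genes and 7 of the 14 neutrophil genes lay above the percentile of mean signal used earlier. Leaving out single arrays, the T and NK median in curcumin TNBS ran from -0.03 to 0.28. The neutrophil median ran from -0.24 to 0.20. The most negative difference among the 10 genes with the smallest p was that of an immunoglobulin kappa probe set (Igk), with 1046, 667.7 and 394.6 in curcumin TNBS arrays and 1344, 1594 and 1496 in standard control arrays. Its log2 difference of -1.16 ± 0.34 did not pass, and 3 other Igk probe sets gave -0.51 to -0.08.

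**Figure D3:**
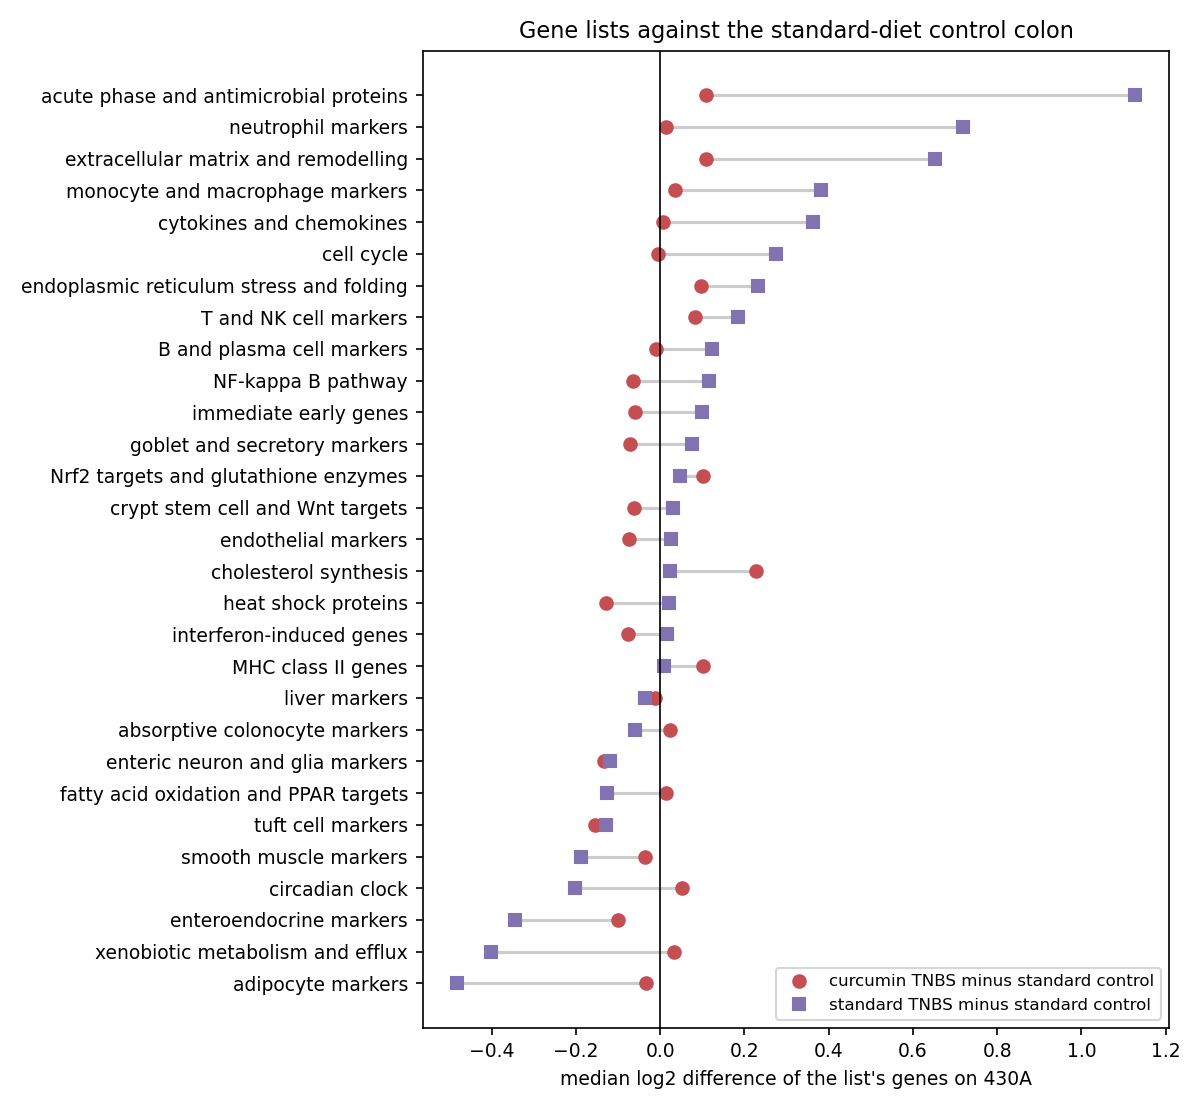
Median log2 difference on 430A of the genes of 29 lists, for curcumin TNBS minus standard control (circles) and standard TNBS minus standard control (squares), both from the same standard control arrays. Circles run from -0.15 (tuft cell markers) to 0.23 (cholesterol synthesis), while squares reach 1.13 for acute phase and antimicrobial proteins; the pancreas acinar list is left out and described in the text.

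Genes of detoxification and of the epithelium had differences of either sign. The drug efflux pump gene Abcb1a had signals of 5220, 5320 and 4640 in curcumin TNBS arrays, 2231, 3444 and 2710 in standard TNBS arrays, and 5235, 4929 and 4588 in standard control arrays. The curcumin TNBS and standard control ranges overlapped almost fully, with a log2 difference of 0.04 ± 0.14 and a 95% interval of -0.27 to 0.35. The glucuronosyltransferase gene Ugt2b5 had a difference of 0.22 ± 0.25 from standard control and 1.49 ± 0.25 from standard TNBS (adjusted p = 0.0967 in limma). The 40 genes of xenobiotic metabolism had a median log2 difference of 0.03 in curcumin TNBS and -0.40 in standard TNBS. Among absorptive colonocyte genes (32 on 430A, median 0.02), the chloride-bicarbonate exchanger Slc26a3 differed by 0.15 ± 0.14 and the water channel Aqp8 by 0.14 ± 0.22. Goblet and secretory markers had a median of -0.07, with 3 of 20 lower without overlap and 0 higher, beside 2.98% of all genes lower and 2.82% higher. Atoh1, which specifies secretory cells, had 2914, 2187 and 2322 in curcumin TNBS arrays and 3792, 3159 and 2875 in standard control arrays, which overlap by a narrow margin. Its log2 difference was -0.40 ± 0.17, and that of standard TNBS from the same arrays was -0.41. The absorptive list's most negative member, the proton pump gene Atp12a, had -1.001 ± 0.50 in curcumin TNBS and -0.64 in standard TNBS. Its signals were 197.2, 698.1 and 1033 in curcumin TNBS arrays and 1067, 855.5 and 1340 in standard control arrays, which overlap. Within the first and second array set the difference was -2.35 and -0.33, so curcumin TNBS replicate 1 carried most of it. Enteroendocrine, tuft, enteric neuron and glia, smooth muscle, endothelial and adipocyte lists had medians between -0.15 and -0.03 in curcumin TNBS.

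The genes of cholesterol synthesis had mostly small positive differences. Of 18 members on 430A, 17 had a positive log2 difference, 7 were higher without overlap and 0 lower, and 4 had an unadjusted p under 0.05 in limma, where 2.82% of all genes were higher without overlap and 1.43% had such a p. The median difference was 0.23, with 0.31 and 0.22 within the first and second array set and 0.21 to 0.25 with 1 array left out. No member passed after adjustment. The list was chosen with an earlier analysis in view that had shown it higher in curcumin control colons, so its direction here is not independent evidence. Its median was 0.22 in curcumin control and 0.02 in standard TNBS, from the same standard control arrays. Another 1 of the list's 24 genes, Insig1, was measured on 430B, and the other 5 are not analysed here.

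These enzymes act in sequence, and the sterol-sensing factor SREBP2, encoded by Srebf2, is known to drive their genes when cell sterol is low. Hmgcs1, which makes the HMG-CoA that feeds the pathway, had signals of 5823, 3334 and 3117 in curcumin TNBS arrays and 3614, 3034 and 2375 in standard control arrays. The groups overlapped, with a log2 difference of 0.40 ± 0.23. The mevalonate decarboxylase Mvd (0.23 ± 0.16) and the isomerase Idi1 (0.31 ± 0.20) differed without overlap. Fdft1, the squalene synthase that commits the pathway to sterols, had 1151, 1140 and 1157 in curcumin TNBS arrays and 870.8, 976.5 and 740.9 in standard control arrays. Every curcumin TNBS array was higher, and the log2 difference was 0.42 ± 0.12 (95% interval 0.16 to 0.67, unadjusted p = 0.00385 in limma). Other Fdft1 probe sets ranged from -0.51 to 0.56. Msmo1, the methylsterol oxidase, had 2423, 1668 and 1654 in curcumin TNBS arrays and 1246, 1306 and 1322 in standard control arrays. Its difference of 0.54 ± 0.18 was the largest of the list, with 0.95 and 0.33 within the array sets. Nsdhl, the next demethylation enzyme, had 1472, 1401 and 1516 in curcumin TNBS arrays and 1269, 988.7 and 1202 in standard control arrays, a log2 difference of 0.35 ± 0.11. The isomerase Ebp (0.21 ± 0.14) and the sterol carrier Stard4 (0.21 ± 0.11) were also higher without overlap. Srebf2 itself had a difference of -0.05 ± 0.21, and the sterol sensor Insig1 on 430B had 0.34 ± 0.19, or 0.75 without the outlying arrays.

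**Figure D4:**
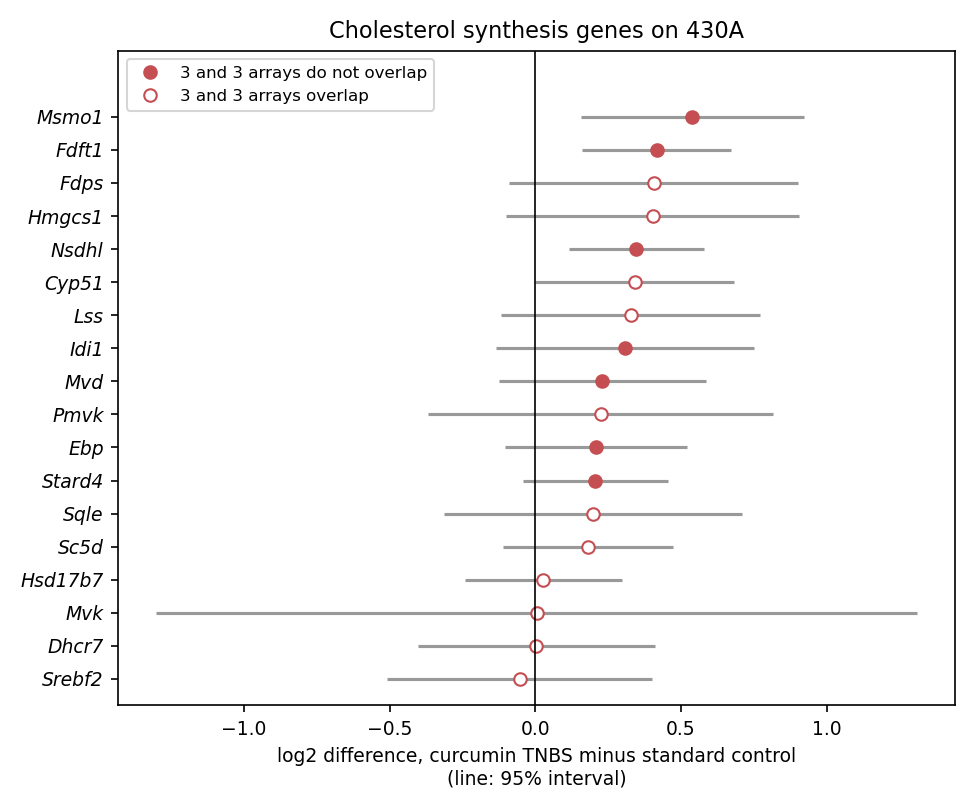
Log2 difference of curcumin TNBS minus standard control for the 18 cholesterol synthesis genes on 430A, with 95% intervals as lines. Filled points are the 7 genes whose 3 and 3 arrays do not overlap; 17 of 18 points lie above 0 and most intervals reach 0.

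Because these genes lay on the same side, the 250 bases upstream of their starts were searched for the letters of the sterol regulatory element, TCACNCCAC, on both strands in RefSeq promoter sequences (GRCm38.p6). Of the 14 list genes on 430A with an entry, 1 held it, against 1.22% of 27025 genes in the table. The same search was made for the kappa B motif among the genes called higher in standard TNBS than in standard control. Of 7 such genes with an entry, 1 held it, against 5.31% of all genes. The windows around both matches are printed with the match in capitals, and neither holds the other motif. Each is the only gene of its set with a match, and whether the motif acts there was not tested. The Hmgcs1 window is at chr13:119690184-119690252 on the plus strand and the window of Lrg1, the leucine-rich glycoprotein of the acute phase, at chr17:56121947-56122010 on the minus strand.
Hmgcs1: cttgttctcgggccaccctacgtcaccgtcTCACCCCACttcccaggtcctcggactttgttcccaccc
Lrg1: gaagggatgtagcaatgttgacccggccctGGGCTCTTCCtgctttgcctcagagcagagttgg
The first match begins 137 bases and the second 34 bases upstream of the start. Lrg1 had signals of 66.5, 29.3 and 35.6 in curcumin TNBS arrays, 2284, 1198 and 2025 in standard TNBS arrays, and 22.0, 27.2 and 30.4 in standard control arrays. Its log2 difference from standard control was 0.45 ± 0.75.

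Genes of protein folding in the endoplasmic reticulum and of the Nrf2 response had small positive medians. Of 30 endoplasmic reticulum stress genes, 6 were higher without overlap and 0 lower, beside 2.82% of all genes higher, and the median was 0.10. Hspa5, the chaperone BiP, had 6715, 7953 and 6712 in curcumin TNBS arrays and 5478, 4827 and 3963 in standard control arrays. All curcumin TNBS arrays were higher, with a log2 difference of 0.59 ± 0.17. Another Hspa5 probe set had 0.81 on 430A and another -0.01 on 430B. The stress factor genes Ddit3 (0.77 ± 0.29) and Atf3 (-0.91 ± 0.44) had differences of opposite sign, and both overlapped between groups. The medians of the same list were 0.29 in curcumin control and 0.23 in standard TNBS. This list too had stood higher in curcumin control colons in that earlier analysis, which used the same standard control arrays. Of 30 Nrf2 targets and glutathione enzymes, 26 had positive and 4 negative differences, 2 were higher without overlap, and the median was 0.10. Those 2 were Akr1b8, an aldo-keto reductase, at 0.50 ± 0.15, and the carbonyl reductase Cbr3 at 0.74 ± 0.35. The classical target Nqo1 had 0.10 ± 0.17 and the heme oxygenase Hmox1 0.62 ± 0.68 at low signals of 76.0, 100.7 and 39.0 in curcumin TNBS arrays and 57.3, 20.7 and 44.1 in standard control arrays. Heat shock proteins lay on the other side: 14 of 17 had negative differences, as had 6515 of all 12393 genes, and the median was -0.13. Of the 17, 1 was lower without overlap, beside 2.98% of all genes. That gene was Hsph1, a cytosolic co-chaperone, with 435.2, 376.7 and 548.7 in curcumin TNBS arrays and 768.0, 728.5 and 718.9 in standard control arrays and a difference of -0.70 ± 0.30.

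The remaining genes of smallest p on 430A also had an adjusted p of 1.00 in limma. The metallothionein gene Mt2 had 3157, 3281 and 2562 in curcumin TNBS arrays and 1307, 1873 and 2213 in standard control arrays. Its log2 difference was 0.76 ± 0.24, with 1.26 and 0.51 within the array sets. The mast cell protease gene Mcpt2 differed by 0.99 ± 0.30, the ribosomal protein gene Rps27 by 0.92 ± 0.27 and the glycosyltransferase gene Galnt16 by 0.69 ± 0.20. Dio1, the deiodinase that activates thyroid hormone, had 535.1, 484.0 and 403.9 in curcumin TNBS arrays and 725.7, 665.9 and 654.4 in standard control arrays, a difference of -0.52 ± 0.15. Each of these 5 genes had its arrays apart between the groups.

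Pancreatic transcripts varied more than any other list and did so within groups. The summed signal of 22 pancreas acinar genes, which encode digestive enzymes that the colon is not known to make, was 157713, 15214 and 40065 in curcumin TNBS arrays and 15680, 201024 and 145938 in standard control arrays. One curcumin TNBS array and 2 standard control arrays were high. The 3 standard TNBS arrays, at 184188, 81276 and 206301, were above the other 2 curcumin TNBS arrays, and the list's median log2 difference of curcumin TNBS from standard TNBS was -2.62. The median log2 difference of the list was -0.92, but 5.79 within the first array set and -4.21 within the second, and -2.85 to 0.39 with 1 array left out. The elastase gene Cela2a had 7600, 14.2 and 1208 in curcumin TNBS arrays and 68.2, 10280 and 7008 in standard control arrays. Reg3a, an antimicrobial lectin of gut that pancreas makes as well, had 638 in curcumin TNBS replicate 1 and 41 and 47 in replicates 2 and 3, against 19, 64 and 30 in standard control arrays. The part of pancreatic RNA in the other results, those against standard TNBS included, was not tested. The 13 liver markers had a median of -0.01.

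On 430B, 8 of 22511 probe sets (0.0355%) passed between curcumin TNBS and standard control, 5 higher and 3 lower. An unadjusted p under 0.05 was reached by 3763 (16.7%), and the arrays did not overlap for 20.2%, 12.4% higher and 7.79% lower. The mean between-group distance was 0.875 and the within-group distance 0.751, a difference of 0.124 with p = 0.1, the smallest that the exact permutation test can give. Most of this distance came with the 2 outlying arrays. Curcumin TNBS replicates 2 and 3 lay 0.961 and 0.971 from the standard control arrays, replicate 1 lay 0.692, and the standard control arrays lay 0.668 to 0.672 from one another. On the 100 probe sets that both array types carry, the median log2 signal on 430B minus 430A was 1.498 and 1.477 in the outlying samples, against 1.82 in curcumin TNBS replicate 1 and 1.80 to 1.94 in standard control samples. Without them, 997 probe sets had an unadjusted p under 0.05, and 1 passed (0.00444%), which carries no gene name and is none of the 8. The curcumin TNBS group is then 1 array, assumed to vary like the other groups. Without curcumin TNBS replicate 1, which leaves the 2 outlying arrays as the group, 2598 passed.

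In each of the 8 probe sets, all 3 curcumin TNBS arrays lay on one side of the standard control arrays. Mapk14, which encodes the stress-activated kinase p38 alpha, had signals of 183.6, 175.9 and 177.0 in curcumin TNBS arrays and 1150, 1029 and 948.3 in standard control arrays for 1 probe set. The arrays did not overlap, and the size of the difference was similar without the outlying pair. The log2 difference was -2.44 ± 0.25 (adjusted p = 0.00326 in limma), and -2.40 without the 2 outlying arrays (adjusted p = 0.132). With 1 array left out it ran from -2.50 to -2.37 and passed each time (adjusted p from 0.000283 to 0.0492). Standard TNBS arrays had 1011, 861.6 and 595.5, and curcumin TNBS was lower than these by -2.07 (adjusted p = 0.00715 in limma). The other 5 Mapk14 probe sets had log2 differences of -0.52 to 0.05 from standard control, so the call describes a single probe set.

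A probe set of Cyb5d2, a heme-binding protein gene, had 83.2, 84.0 and 65.3 in curcumin TNBS arrays and 557.1, 413.7 and 277.3 in standard control arrays, a log2 difference of -2.16 ± 0.31 (adjusted p = 0.0321 in limma). Another Cyb5d2 probe set had -1.99, but -0.34 without the outlying arrays. The higher probe sets were dim in standard control arrays. That of Nr2e1, an orphan nuclear receptor gene, had 119.0, 114.3 and 96.1 in curcumin TNBS arrays and 19.0, 10.4 and 11.4 in standard control arrays. That of Pebp4, a phosphatidylethanolamine-binding protein gene, had 196.2, 186.1 and 367.0 in curcumin TNBS arrays and 34.6, 14.1 and 16.1 in standard control arrays. Their log2 differences were 2.09 and 2.80 (adjusted p = 0.0321 each), while other probe sets of Nr2e1 had -0.42 and of Pebp4 -0.27 and 0.46. Trav13-5, a T cell receptor alpha variable segment, had 135.2, 152.2 and 119.5 in curcumin TNBS arrays and 5.2, 12.0 and 12.5 in standard control arrays (log2 difference 2.56 ± 0.38, adjusted p = 0.0375 in limma). The remaining 3 carry no gene name. None of the 5 named calls passed without the 2 outlying arrays (adjusted p from 0.132 to 0.334), although the log2 differences then were -2.40, -2.07, 2.20, 2.54 and 2.56 for Mapk14, Cyb5d2, Nr2e1, Pebp4 and Trav13-5.

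**Figure D5:**
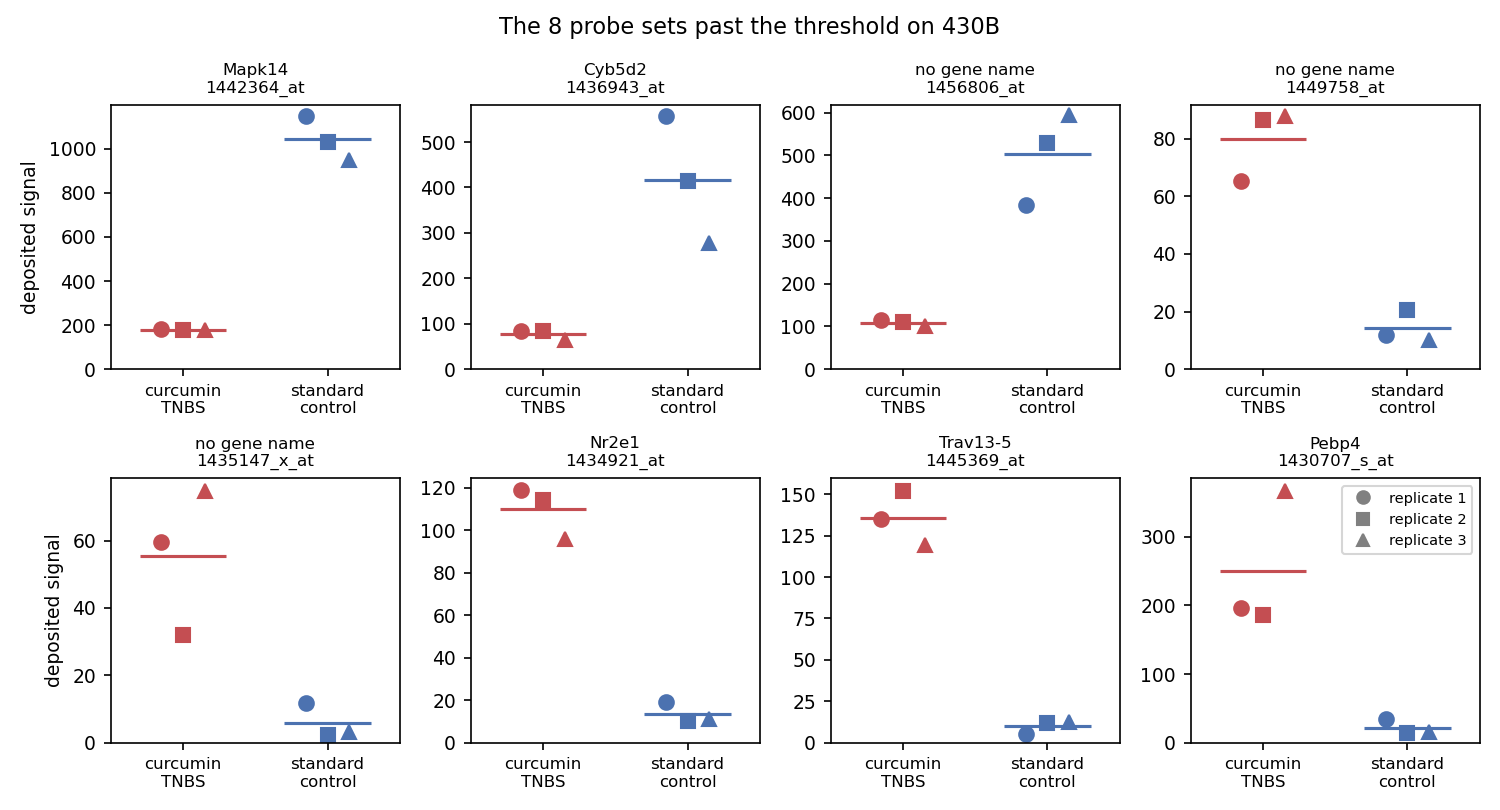
Deposited signal on 430B, on linear axes from 0, of the 8 probe sets that passed between curcumin TNBS and standard control. Points are arrays, shapes are replicates and lines are group means; the 3 lower probe sets have curcumin TNBS signals under 200 and the 5 higher ones have standard control signals under 40.

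The 430B genes of this paragraph did not pass, and their differences were smaller in size without the outlying pair. Cdc42bpb, a cytoskeletal kinase gene, had 716, 144 and 171 in curcumin TNBS arrays and 1476, 1663 and 1870 in standard control arrays, with a log2 difference of -2.58 ± 0.48 (adjusted p = 0.0860 in limma). Replicate 1 lay between the other curcumin TNBS arrays and the untreated ones. Ifit1bl1, of the interferon-induced tetratricopeptide family, had 5355, 3978 and 4584 in curcumin TNBS arrays and 9463, 8274 and 7759 in standard control arrays, a difference of -0.88 ± 0.17 (adjusted p = 0.0916 in limma). Without the 2 arrays the log2 difference was -1.20 for Cdc42bpb and -0.66 for Ifit1bl1. The mucin gene Muc2, also on 430B, had 76307, 48926 and 49799 in curcumin TNBS arrays and 64968, 84473 and 91883 in standard control arrays, with a difference of -0.48 ± 0.31, and of -0.06 without the outlying arrays.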

How the data were processed

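Total RNA of whole mouse colon was measured on Affymetrix 430A and 430B arrays, 12 of each, in 4 groups of 3 taken from the labels. The deposited values are intensity signals; the submitters' processing notes name GCOS as the authors' software, with no version given in the sources used here. The 2% trimmed mean of each array was near 500, so arrays had been scaled, and signals were used as deposited. Precision is limited by the number of arrays.

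The 64 control probe sets of each type were left out. On 430A, 20380 of 22626 probe sets had 1 gene symbol in the platform annotation, and on 430B 14661 of 22511. From the deposited signals, log2 values, log2(signal + 16), were fitted with a mean per group over the 12 arrays of a type in limma 3.58.1 (R 4.3.3; lmFit, eBayes with trend, 8 residual degrees of freedom). P-values are two-sided and Benjamini-Hochberg adjusted within an array type, with a threshold of 0.05. The script was tested on simulated data. Distances used an exact permutation test in Python 3.11.15 with numpy 2.4.6.

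A gene's value is its probe set with the highest mean, from 430A where possible. Genes were named when called without overlap, among the 10 of smallest p of an array type, among up to 3 members of each of 30 lists (698 genes, 645 measured) with the largest difference, or fixed by name. Genes called in another comparison, such as Chil3, Arg1, Lbp, Lrg1 and Ssr4, and list members such as Hmgcs1, Mvd, Idi1, Ebp, Stard4 and Srebf2 are named with their values already seen. The comparison, its members and the lists were chosen with earlier results of these data known. Promoter windows come from RefSeq, and no genome build is given for the arrays.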

Additional observations from a re-analysis of the deposited data

How the results depend on the processing

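On 430A, 0 probe sets passed under each of the 21 alternatives, with 179 to 2141 at an unadjusted p under 0.05 in limma (2141 with array weights, 810 with a term for array set, 239 to 510 with 1 array left out). On 430B the count of 8 was 3 with a pseudocount of 1, 5 with 64, 3 above the 40th percentile of signal, 3 after quantile normalization, 4 after median centring and 1 with only the 6 arrays of both groups. It was 3286 with array weights and 1 without curcumin TNBS replicates 2 and 3. With 1 array left out it ran from 1 to 2598. The 2598 came without curcumin TNBS replicate 1, which leaves the outlying arrays as the group; the cause of the other shifts was not tested. The between-group minus within-group distance kept its sign: -0.069 to -0.036 on 430A, and 0.022 to 0.313 on 430B. On 430A a larger share of within-group than of between-group pairs crossed the array sets. The kept sign is therefore no measure of closeness there. Pairs of the same set lay 0.489 apart between the groups and 0.444 within them. The 6 calls against standard TNBS, examined under settings chosen after seeing the data, became 2 after quantile normalization and 22 with a term for array set, and 0 to 41 with 1 array left out (41 without curcumin control replicate 3). For Mapk14, Nr2e1 and Pebp4, the called probe sets (-2.44, 2.09 and 2.80) differ in sign from the probe set that stands for the gene under the naming rule (0.05 for Mapk14 on 430A, and -0.42 and -0.27). A brighter Mapk14 probe set on 430B had -0.06. Of 2626 alternative values of the 143 named genes, 146 changed sign. No paired analysis was possible because replicates were numbered in accession order and the labels pair no samples across groups.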
